A study of Homo sapiens with 19 samples.

Results

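The HOX cluster genes were taken as every protein-coding gene whose symbol was HOX followed by A, B, C or D and a number. This gave 39 of the 44717 genes listed for any library, of which 18485 were protein-coding. The choice used symbols and no measured value. They were 11 HOXA, 10 HOXB, 9 HOXC and 9 HOXD genes. The genes were measured by total RNA-seq in 19 libraries of 2 human cell lines. 501Mel is a melanoma line, and Hermes 3A is a line of untransformed melanocytes that was grown with a phorbol ester, cholera toxin and melanocyte growth factors.

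All cells were infected with a lentivirus that expressed a short hairpin RNA (shRNA). In 501Mel there were 3 libraries with the scramble control shSCR1, 3 with shBRG1, 2 with the scramble control shSCR2 and 2 with shMITF. In Hermes 3A there were 3 libraries each with shSCR, shBRG1 and shMITF, so that both knockdowns of this line share the shSCR libraries. BRG1, encoded by SMARCA4, is an ATPase of the SWI/SNF chromatin remodelling complexes, and MITF is the transcription factor that drives melanocyte identity. One shRNA was used per target, each line is a single line, and whether shSCR1 and shSCR2 are the same vector was not stated. The labels do not say that the replicates are separate cultures, so p-values measure only the spread between libraries, which may be technical.

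HOX genes encode homeodomain transcription factors and lie in 4 clusters that arose by duplication of an ancestral cluster. Genes at matching positions in the clusters form a paralog group, numbered from 1 at one end, whose genes specify anterior structures in the embryo, to 13 at the other, whose genes specify posterior and distal structures. Polycomb complexes keep the clusters silent, trithorax complexes keep them active, retinoic acid induces the low-numbered genes, and adult skin cells keep a HOX pattern that reflects the body site they came from.

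The clusters are given by the annotation of the GRCh38 build. HOXA lies on the minus strand of chromosome 7, HOXB at chr17:48528526-48729178 on the minus strand, HOXC at chr12:53938765-54056030 on the plus strand and HOXD at chr2:176092891-176190907 on the plus strand. Paralog groups 1-3 hold 8 genes, groups 4-8 hold 15 and groups 9-13 hold 16.

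The homeobox, the stretch of 180 bases that encodes the homeodomain, was found in 39 of 39 genes. It is shown for paralog group 13, because it holds HOXA13, the HOX gene that fell most in 501Mel shBRG1. It is printed 5′ to 3′ from the GENCODE 29 transcripts of GRCh38, with bases that differ from HOXA13 in capitals.
HOXA13: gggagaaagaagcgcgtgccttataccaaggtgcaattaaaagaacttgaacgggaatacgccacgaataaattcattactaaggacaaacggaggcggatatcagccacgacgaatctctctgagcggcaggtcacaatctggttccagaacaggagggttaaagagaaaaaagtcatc
HOXB13: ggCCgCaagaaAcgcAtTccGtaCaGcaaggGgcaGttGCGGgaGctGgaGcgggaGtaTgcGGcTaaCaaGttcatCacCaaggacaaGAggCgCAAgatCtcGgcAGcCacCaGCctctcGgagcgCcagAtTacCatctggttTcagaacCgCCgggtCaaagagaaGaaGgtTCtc
HOXC13: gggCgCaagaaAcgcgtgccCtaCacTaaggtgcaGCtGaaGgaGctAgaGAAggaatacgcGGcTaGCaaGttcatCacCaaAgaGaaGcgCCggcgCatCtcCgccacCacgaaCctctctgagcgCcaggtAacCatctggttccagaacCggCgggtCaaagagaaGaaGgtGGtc
HOXD13: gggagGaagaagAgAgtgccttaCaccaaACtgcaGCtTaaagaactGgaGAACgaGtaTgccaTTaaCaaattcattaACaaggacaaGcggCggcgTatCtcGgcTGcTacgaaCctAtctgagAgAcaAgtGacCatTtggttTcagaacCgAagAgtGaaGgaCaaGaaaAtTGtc
Against HOXA13, the homeobox of HOXB13 differed at 55 bases, HOXC13 at 43 and HOXD13 at 48. Over the 42 pairs of genes within a paralog group, identity ranged from 69.4% to 90.6% with a median of 81.7%. The 172 pairs within a cluster had a median of 61.4%. By median, members of a paralog group were closer in this stretch than members of a cluster. Over whole transcripts, 2 genes, HOXB3 and HOXD3, shared a run of 50 bases with a member of another cluster.

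Sharing within a locus was greater. Of the 39 genes, 13 shared no run of 50 bases with another annotated gene, HOXB8, HOXB9, HOXC8, HOXC11, HOXC12, HOXD9, HOXD12 and HOXD13 among them. In 11 genes over 20% of such runs lay in another gene of either strand. The share was 76.5% for HOXD4, 71.5% for HOXD3 and 53.8% for HOXD1, where it was with transcripts of the opposite strand. It was 25.3% for HOXB6, part of it with HOXB3. For HOXC5 it was 58.9%, with another annotated entry of the same symbol and strand. Whether the counting used strand was not given in the sources used here, so the values of these genes may hold reads of the overlapping genes.

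Windows of 250 bases upstream of a transcription start were at hand for 20 of the 39 genes, from RefSeq on GRCh38.p14. Both strands were searched for CACGTG and CATGTG, hexamers that MITF is known to bind, and for ACAAAG, a hexamer of SOX factors. CACGTG was found in 8 of the 20 genes, CATGTG in 9 and ACAAAG in 2, while 6.34%, 9.42% and 13.7% of all 35116 windows held them. Some genes have several windows (27 in all), which raises their chance of a match, so shares of genes and of windows are not alike. HOXC4 and HOXC5 have the same window, whose CATGTG counts for both. The windows of 3 HOXD genes are shown because these genes changed in the knockdowns. Capitals mark CACGTG in HOXD1 (chr2:176188418-176188667, plus strand) and CACATG, which is CATGTG on the other strand, in HOXD4 (chr2:176151300-176151549, plus strand). The window of HOXD12 (chr2:176099545-176099794, plus strand) held none of the 3 hexamers.
HOXD1: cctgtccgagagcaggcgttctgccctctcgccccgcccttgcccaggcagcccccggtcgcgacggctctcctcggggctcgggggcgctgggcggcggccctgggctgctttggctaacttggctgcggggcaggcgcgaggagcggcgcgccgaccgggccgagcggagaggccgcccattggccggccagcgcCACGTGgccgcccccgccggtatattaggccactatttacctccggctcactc
HOXD4: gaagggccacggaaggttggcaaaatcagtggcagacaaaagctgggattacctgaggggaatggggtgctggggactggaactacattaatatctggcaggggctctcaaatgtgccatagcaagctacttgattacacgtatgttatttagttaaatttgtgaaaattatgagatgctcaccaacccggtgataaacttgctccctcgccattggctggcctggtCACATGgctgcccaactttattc
HOXD12: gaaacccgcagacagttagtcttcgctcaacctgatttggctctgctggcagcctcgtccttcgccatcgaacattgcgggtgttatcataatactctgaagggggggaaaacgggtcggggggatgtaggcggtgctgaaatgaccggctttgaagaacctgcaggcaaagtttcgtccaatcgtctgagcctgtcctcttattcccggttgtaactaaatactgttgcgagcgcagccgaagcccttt
A match describes the letters of the window and is not evidence of binding.

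The targeted genes checked the labels. SMARCA4 lay between 40.1 and 45.3 CPM (counts scaled to a common library size) in 501Mel shBRG1 libraries and between 207 and 226 CPM in shSCR1, a log2 fold change of -2.36 ± 0.054 (SE). In Hermes 3A shBRG1 the log2 fold change of SMARCA4 was -2.38 ± 0.0483. MITF lay between 489 and 562 CPM in 501Mel shMITF libraries and between 1037 and 1154 CPM in shSCR2 (log2 fold change -1.06 ± 0.135, adjusted p = 0.00143, edgeR). The shMITF libraries did not lie below the other scramble group: with all libraries scaled together, MITF was at 69.2 and 76.2 RPKM (CPM divided by the exon length in kilobases) in shMITF, 140 and 168 in shSCR2 and 69.7 to 83.5 in shSCR1, so that shMITF and shSCR1 overlapped. In Hermes 3A, MITF went from 901 to 996 CPM in the controls to 414 to 660 CPM in shMITF (log2 fold change -0.85 ± 0.191, adjusted p = 0.0194, edgeR). BRG1 silencing also lowered MITF, by a log2 fold change of -1.55 in 501Mel and -0.43 in Hermes 3A.

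Libraries held between 29158502 and 78857900 counts in genes. HOX genes took between 3526 and 11320 counts per library in 501Mel and between 11512 and 29183 in Hermes 3A. The summed level of 8 melanocyte markers, in RPKM, was 7360 to 8010 in shSCR1 and 775 to 853 in 501Mel shBRG1. It was 4990 to 6010 in shSCR2 and 3000 to 3120 in 501Mel shMITF. In Hermes 3A it was 16900 to 17300 in shSCR, 8300 to 8630 in shBRG1 and 7170 to 9220 in shMITF. All 8 melanocyte markers lay lower in 501Mel shBRG1 than in shSCR1. Of these, 7 passed an adjusted p below 0.05 and a log2 fold change below -1, as did 17.4% of all genes (edgeR). The summed level of 6 fibroblast markers was 0.685 to 0.992 in shSCR1, 3.13 to 3.78 in 501Mel shBRG1, 2.28 to 2.53 in shSCR2 and 1.85 to 3.75 in 501Mel shMITF. In Hermes 3A it was 7.93 to 9.11 in shSCR, 13.8 to 14.6 in shBRG1 and 10.3 to 20.6 in shMITF. Most of the Hermes 3A sum was COL1A2, at 5.85 to 6.55 in shSCR, 12.3 to 13.2 in shBRG1 and 9.12 to 19.7 in shMITF. LUM was lower in shBRG1 (1.156 to 1.319) than in shSCR (1.988 to 2.485), and spread from 0.287 to 3.56 in shMITF. Of the 4 fibroblast markers tested in Hermes 3A shBRG1, 2 were up-regulated and 1 passed the adjusted p alone on the lower side (edgeR). In Hermes 3A shMITF these counts were 2 and 0 of 4. In 501Mel shBRG1, 4 of the 5 fibroblast markers tested rose at that adjusted p and a log2 fold change above 1, beside 21.7% of all genes. COL3A1 held 1 count over the shSCR1 libraries and 35 over those of shBRG1, and was at 0 in shSCR2. Keratinocyte markers (3 measured) summed to between 12.8 and 30.9 and endothelial and blood markers (4 measured) to between 0.0663 and 0.54 in any library. The part of these shifts in the HOX results was not tested, and fewer cells of a type cannot be told apart from less RNA per cell.

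The baseline HOX code of each line was read from the scramble libraries. In 501Mel shSCR1 the highest levels were those of HOXD4 at 4.88 ± 0.42 RPKM (SD, n = 3), HOXC4 at 3.43 ± 0.16, HOXC9 at 2.98 ± 0.24 and HOXD8 at 2.33 ± 0.15, with HOXC6, HOXB9, HOXA5 and HOXA3 next at 1.90, 1.82, 1.8 and 1.75 RPKM. The values of the last 4 overlapped. In shSCR1 HOXA took 26.5% of the summed HOX level, HOXB 20.8%, HOXC 26.6% and HOXD 26.1%. The other scramble group had another order. In shSCR2 HOXD4 was at 6.75 and 12.4 RPKM, HOXC9 at 6.43 and 6.91, HOXC4 at 4.43 and 5.39 and HOXA5 at 4.36 and 4.65, and HOXB took 12% of the sum (10.8% and 13.2%), beside 29.3% for HOXA, 30% for HOXC and 28.6% for HOXD.

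In Hermes 3A a single gene stood above the rest. HOXB13, which marks the most posterior paralog group and is known from prostate and distal gut, was at 45.7, 49.5 and 44.8 RPKM in the shSCR libraries. In 501Mel scramble libraries it was at 0.755, 0.833 and 0.676 (shSCR1) and 0.938 and 0.993 (shSCR2), so that every Hermes 3A value was far above every 501Mel value (log2 fold change 5.73 ± 0.0715). HOXC10, a gene of hindlimb and lumbar identity, followed at 18.8, 16.6 and 17.2 RPKM in Hermes 3A, against 0.113 to 0.197 in shSCR1 and 0.611 to 1.11 in shSCR2. HOXD4 at 9.77 ± 1.10 RPKM, HOXB2 at 8.77 ± 0.27 and HOXC9 at 8.68 ± 0.56 came next and overlapped one another. The HOXB cluster took 46.2% of the summed HOX level in Hermes 3A shSCR and HOXA 7.1%. Much of the HOXB share was HOXB13, and with this gene left out of both sums HOXB took 24.1%.

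**Figure D1:**
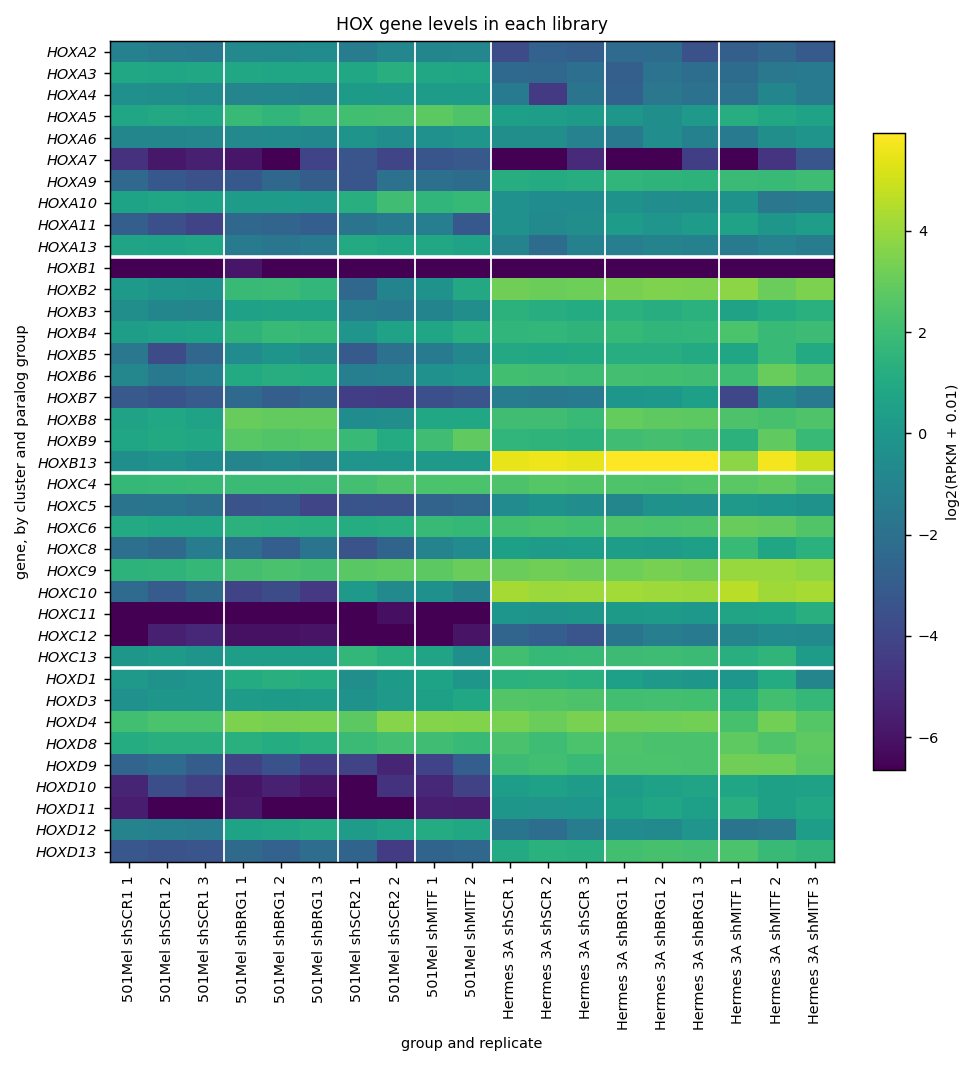
Heat map of 38 HOX genes (rows, by cluster and paralog group) in each of the 19 libraries (columns, by group), coloured by log2 of RPKM plus a small constant that is named on the colour bar, with white lines between clusters and groups. HOXB13, at 13.2 to 60.8 RPKM in Hermes 3A, is the brightest row in 8 of its 9 libraries, HOXC10 at 24.7 RPKM is in shMITF replicate 1, and HOXD4 at 4.40 to 12.4 RPKM is in all 10 libraries of 501Mel, where HOXC11 and HOXD11 stay at or near 0.

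Between the lines, 24 of the 37 HOX genes tested were higher in Hermes 3A shSCR than in the 5 scramble libraries of 501Mel and 7 were lower, at an adjusted p below 0.05 and a log2 fold change beyond 1 (edgeR, quasi-likelihood test). Of all 20354 genes tested, 18% were higher and 20.1% lower by the same rule. The HOXA cluster ran against the other 3, with a median log2 fold change of -1.44 over its 10 genes tested against 2.50 for HOXB, 2.26 for HOXC and 2.54 for HOXD. HOXA3, a gene of the pharyngeal arches, was at 1.65 to 1.83 RPKM in shSCR1, 1.83 and 2.43 in shSCR2 and 0.173 to 0.231 in Hermes 3A (log2 fold change -3.31 ± 0.162). HOXA13, HOXA4, HOXA2, HOXA10 and HOXA5 were also lower in Hermes 3A, by log2 fold changes of -2.20, -2.0, -1.97, -1.68 and -1.20, as was HOXD12 by -1.36. Against the shSCR1 libraries alone HOXA5 and HOXD12 were no longer called, and against shSCR2 alone HOXC6 and HOXC13 were among those not called.

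Genes of paralog groups 9-13 had a median log2 fold change of 4.29 and made up the largest differences. HOXC11, HOXC12, HOXD10 and HOXD11 enter this median and the count of higher genes. In both knockdown comparisons within 501Mel they had too few counts to be tested. They passed the expression filter here through Hermes 3A, so their direction was fixed by the filter and lends the median no support. HOXD9 (5.85 ± 0.222), HOXD10 (5.52 ± 0.315), HOXD13 (4.76 ± 0.259) and HOXA9 (3.82 ± 0.226) were higher in Hermes 3A, and of the low-numbered genes HOXB2 was (3.86 ± 0.158). HOXC11 held 376 counts over the 3 Hermes 3A libraries and 1 count over the 5 scramble libraries of 501Mel, a ratio corrected for depth of 757 (95% exact interval 135 to 3e+04, counting error only). HOXD11 held 244 counts and 1 count, a ratio of 491 (95% exact interval 87.3 to 1.95e+04). The other 15 genes higher in Hermes 3A ran from HOXC6 (1.07) to HOXC12 (5.46, 50 counts against 4). They included HOXA11, HOXB3 to HOXB8, HOXC5, HOXC8, HOXC13 and HOXD1. HOXB7, with 8, 7, 6, 2 and 4 counts in the 501Mel scramble libraries, also passed the filter only through Hermes 3A. Its direction was therefore fixed by the filter and lends no support to the count of higher genes or the HOXB median. HOXB1 had no count in any library but 1 of 501Mel shBRG1, which held 1 count. Each line stands for a single origin, so the line cannot be told apart from its body site, its culture medium or its library batch.

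BRG1 silencing in 501Mel changed 14 of the 33 HOX genes tested, with 10 up-regulated and 4 down-regulated, where 21.7% of all 20514 genes tested were up-regulated and 17.4% down-regulated. At an adjusted p below 0.05 with no threshold on the fold change, 18 HOX genes were higher and 7 lower, against 41.2% and 39.1% of all genes. Over the HOX genes the median log2 fold change was 0.61, and over all genes it was 0.05. HOXA7, HOXB1, HOXC11, HOXC12, HOXD10 and HOXD11 had too few counts to be tested. Of the 4 down-regulated genes, HOXC5, HOXC10 and HOXD9 passed the expression filter only through shSCR1.

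The HOXB cluster held 7 of the 10 up-regulated genes. Its summed level was 7.86 ± 0.245 RPKM in shSCR1 and 25.7 ± 0.489 RPKM in shBRG1 (SD, n = 3 each), or 20.8% and 38% of the summed HOX level. The median log2 fold change of its 9 genes tested was 1.68, beside 0.07 for HOXA, 0.12 for HOXC and 0.95 for HOXD.

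HOXB8, a gene of the thoracic region that is also known from myeloid cells, was at 1.5, 1.8 and 1.49 RPKM in shSCR1 and at 8.10, 7.45 and 7.53 in shBRG1. The groups were well apart (log2 fold change 2.21 ± 0.0879, adjusted p = 9.86e-17, edgeR). HOXB6 was at 0.545, 0.334 and 0.417 RPKM in shSCR1 and at 2.08, 2.27 and 2.19 in shBRG1 (log2 fold change 2.29 ± 0.142). HOXB2, a gene of hindbrain segments, was at 1.05, 0.889 and 0.857 RPKM and rose to 3.63, 3.85 and 3.19 (log2 fold change 1.87 ± 0.111).

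HOXB9 was at 1.70, 1.99 and 1.77 RPKM in shSCR1 and 6.39, 5.75 and 6.03 in shBRG1 (log2 fold change 1.68 ± 0.0822). HOXB5 rose from fewer reads, with 32, 7 and 12 counts in shSCR1 and 81, 110 and 79 in shBRG1 (log2 fold change 2.02 ± 0.3). HOXB3 (1.27 ± 0.103) and HOXB4 (1.14 ± 0.0929) completed the up-regulated stretch, whose genes from HOXB2 to HOXB9 are adjacent apart from HOXB7. HOXB7 held 8, 7 and 6 counts in shSCR1 and 17, 12 and 13 in shBRG1 (log2 fold change 0.62 ± 0.377, adjusted p = 0.134, edgeR), so that a rise was not detectable at this depth. HOXB13, which lies apart from the other HOXB genes, at chr17:48724763-48729178, had a log2 fold change of -0.56 ± 0.136, below the threshold of 1 on the log2 scale (adjusted p = 0.000713, edgeR).

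**Figure D2:**
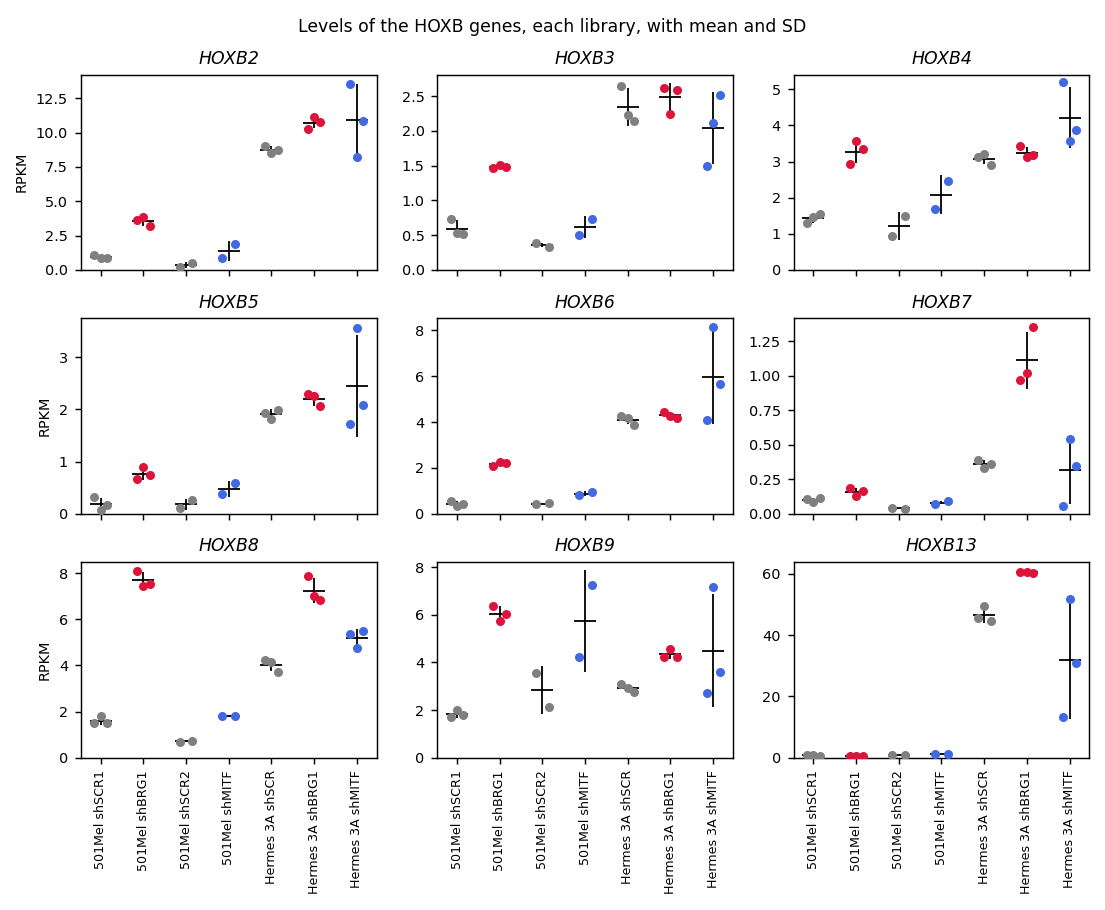
Level in RPKM (linear axis from 0, a scale for each gene) of the 9 HOXB genes other than HOXB1, by group, with 1 point per library (scramble grey, shBRG1 red, shMITF blue), a horizontal bar for the mean and a vertical bar for the SD. In 501Mel the shBRG1 points of HOXB2 to HOXB6, HOXB8 and HOXB9 lie above all shSCR1 points, and HOXB13 spreads from 13.2 to 51.8 RPKM among the Hermes 3A shMITF libraries.

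Outside HOXB, 3 HOXD genes were up-regulated in 501Mel shBRG1. HOXD12, a gene of distal limb and genital patterning, was at 0.475, 0.449 and 0.404 RPKM in shSCR1 and 1.57, 1.73 and 2.08 in shBRG1 (log2 fold change 1.95 ± 0.182). HOXD1, the most anterior gene of its cluster, rose by a log2 fold change of 1.16 ± 0.124 and HOXD4 by 1.05 ± 0.0774. HOXD4 and HOXD1 are among the genes that share much of their length with overlapping transcripts.

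HOXA13, a gene of distal limb and hindgut, showed the largest fall. It was at 1.60, 1.55 and 1.68 RPKM in shSCR1 and 0.345, 0.300 and 0.356 in shBRG1 (log2 fold change -2.32 ± 0.107, adjusted p = 1.81e-15, edgeR). In the other HOXA genes tested the log2 fold change ranged from -0.55 in HOXA4 to 0.89 in HOXA5, and none passed both thresholds. The other down-regulated genes had few reads in these libraries. They passed the expression filter through shSCR1, so their fall was fixed by the filter and lends the count of down-regulated genes no support. HOXC5 (-1.83 ± 0.331) held 67 counts over the shSCR1 libraries and 24 over those of shBRG1, HOXC10 (-1.77 ± 0.385) held 53 and 20, and HOXD9 (-1.60 ± 0.401) held 43 and 18.

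By position, paralog groups 1-3 had 3 up-regulated and 0 down-regulated genes of 7 tested, groups 4-8 had 5 and 1 of 14, and groups 9-13 had 2 and 3 of 12. The medians were 0.63, 0.48 and 0.16. HOXC5 in groups 4-8 and HOXC10 and HOXD9 in groups 9-13 were tested through shSCR1, so their falls lend these counts and medians no support. At an unadjusted p below 0.05, none of the 7 genes of groups 1-3 was lower either, but the share of all genes at that level was not counted. The scramble group used as control bore on 4 of the 14 calls. With the shSCR2 libraries added to the controls, HOXD4, HOXD12, HOXC5 and HOXD9 were no longer called, leaving 8 up-regulated and 2 down-regulated genes.

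**Figure D3:**
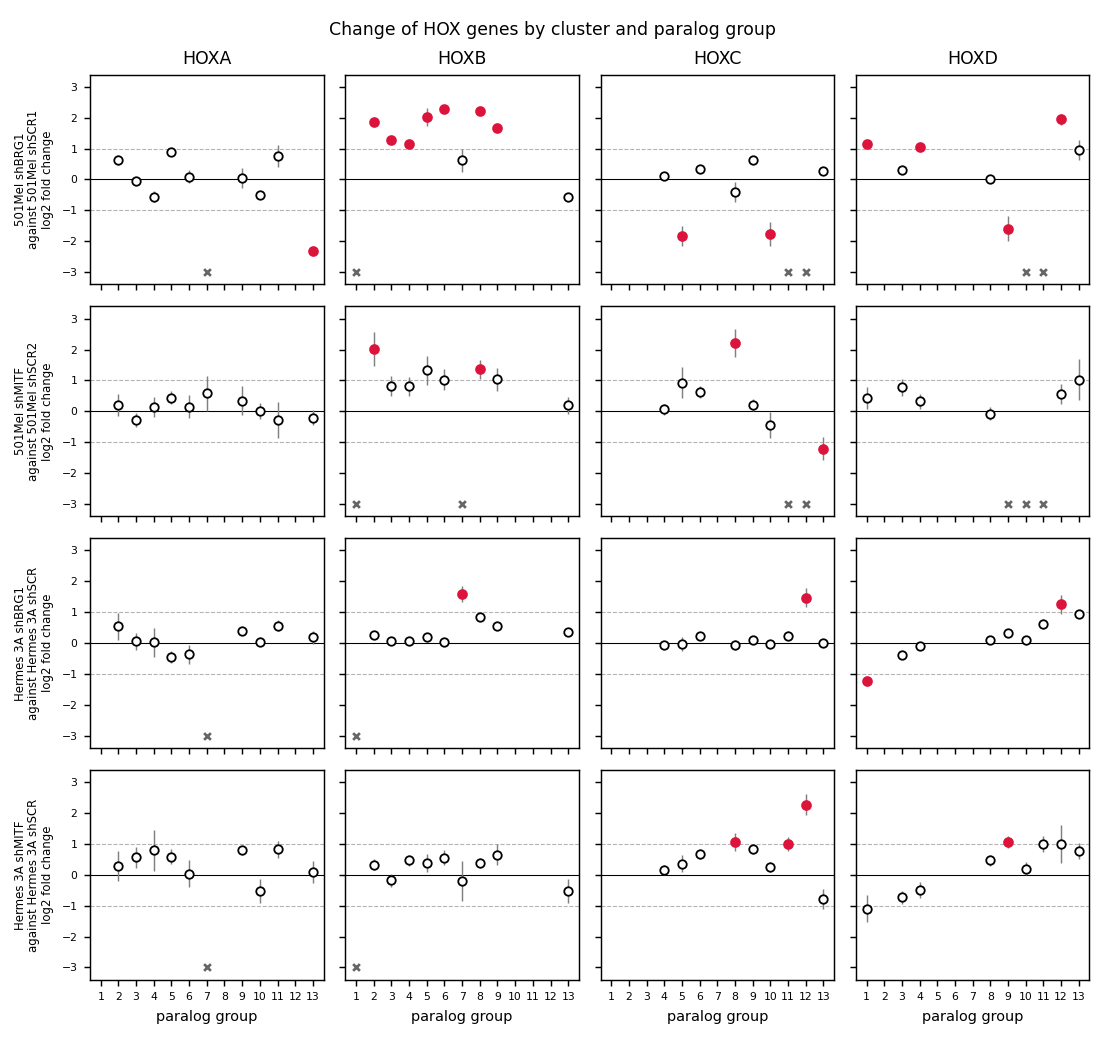
Log2 fold change of 38 HOX genes (y axis, error bars of 1 SE) by paralog group (x axis), with a column for each cluster and a row for each of the 4 knockdown comparisons. Filled red points passed both thresholds, open points did not, dashed lines mark a log2 fold change of 1 in either direction and crosses mark genes not tested. In 501Mel shBRG1 the points from HOXB2 to HOXB9 lie at 0.62 to 2.29 and HOXA13 at -2.32. In Hermes 3A HOXD1 is a filled point at -1.24 in shBRG1 and an open point at -1.10 in shMITF. The Hermes 3A rows share the shSCR libraries, so no likeness between them is drawn.

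BRG1 silencing in Hermes 3A called 4 of the 37 HOX genes tested, 3 up-regulated and 1 down-regulated, where 5.78% of all 17222 genes were up-regulated and 3.47% down-regulated. With no threshold on the fold change, 13 HOX genes were higher and 3 lower, against 28.2% and 28.6% of all genes. Medians of the log2 fold change were 0.09 over the HOX genes and 0.01 over all genes. HOXA7 and HOXB1 were not tested.

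The calls were HOXB7, HOXC12, HOXD12 and HOXD1. HOXB7, a gene of the trunk region with known growth effects in melanoma cells, was at 0.391, 0.331 and 0.363 RPKM in shSCR and 0.972, 1.02 and 1.35 in shBRG1 (log2 fold change 1.59 ± 0.247, adjusted p = 2.87e-06, edgeR). HOXC12 held 23, 14 and 13 counts in shSCR and 43, 75 and 50 in shBRG1 (log2 fold change 1.47 ± 0.299). HOXD12 held 17, 10 and 23 counts in shSCR and 41, 47 and 53 in shBRG1 (log2 fold change 1.26 ± 0.318), a call that was lost when the shMITF libraries shared the fit.

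HOXD1 moved the other way. It was at 2.57, 2.79 and 2.51 RPKM in shSCR and 1.33, 1.05 and 0.984 in shBRG1 (log2 fold change -1.24 ± 0.146, adjusted p = 2.5e-08, edgeR). Along the HOXD cluster the log2 fold changes were -1.24 for HOXD1, -0.37 for HOXD3, -0.11 for HOXD4, 0.09 for HOXD8, 0.34 for HOXD9, 0.09 for HOXD10, 0.61 for HOXD11, 1.26 for HOXD12 and 0.95 for HOXD13. HOXD1 and HOXD3 passed an adjusted p below 0.05 on the lower side, and HOXD9, HOXD11, HOXD12 and HOXD13 on the higher side (edgeR).

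In paralog groups 9-13, 9 of the 16 genes were higher and 0 lower at that level, with a median log2 fold change of 0.35. In groups 1-3 these counts were 1 and 2 of 7, and in groups 4-8 they were 3 and 1 of 14. At an unadjusted p below 0.05, 13 HOX genes in all were higher and 3 lower, a level at which the share of all genes was not counted. HOXD13, a gene of digits, was at 2.03, 2.62 and 2.35 RPKM in shSCR and 4.37, 4.81 and 4.45 in shBRG1 (log2 fold change 0.95 ± 0.104), which did not reach the threshold of 1 on the log2 scale. HOXB13 was at 44.8 to 49.5 RPKM in shSCR and 60.3 to 60.8 in shBRG1 (log2 fold change 0.36 ± 0.0424), so its difference was small beside its level and larger than the spread. HOXB8 also had a higher level, with a log2 fold change of 0.83 ± 0.0865.

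The effects of BRG1 silencing in the lines were compared by an interaction term, over 37 HOX genes. The difference (501Mel minus Hermes 3A) passed both thresholds in 10 genes on the higher side and 5 on the lower side, where 12% and 14.9% of all 21697 genes did so. HOXB2, HOXB3, HOXB4, HOXB5, HOXB6, HOXB8 and HOXB9 were among the 10. For HOXB6 the difference was 2.20, with log2 fold changes of 2.29 in 501Mel and 0.05 in Hermes 3A. For HOXD1 it was 2.36, with a rise in 501Mel (1.16) and a fall in Hermes 3A (-1.24). For HOXA13 it was -2.53, as the gene had a log2 fold change of 0.19 ± 0.21 in Hermes 3A. HOXD12 rose in both lines, and its difference of 0.68 ± 0.363 did not pass the threshold (adjusted p = 0.109, edgeR).

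**Figure D4:**
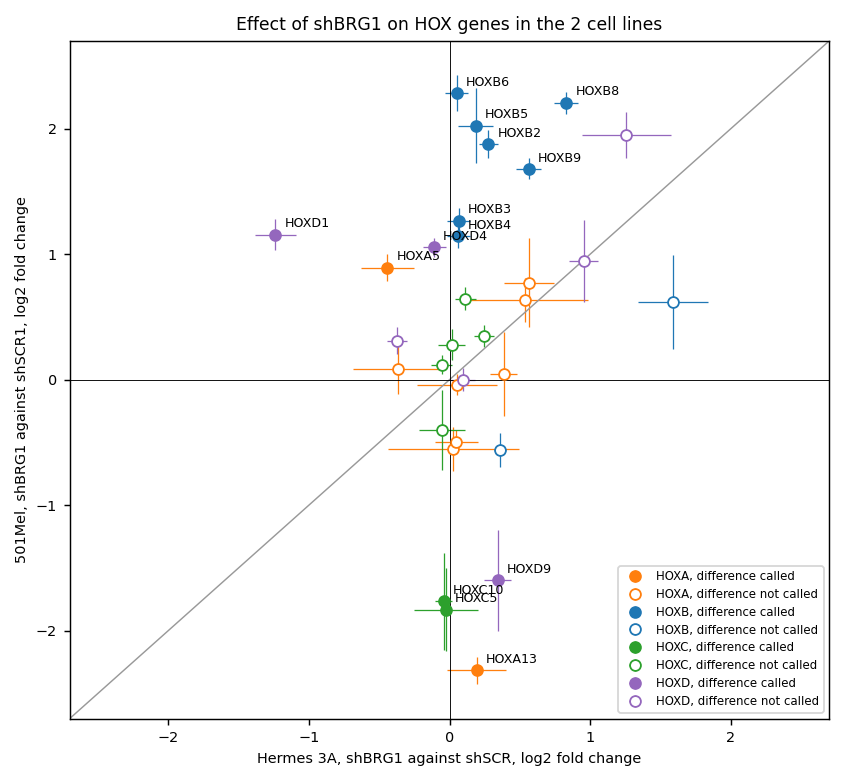
Log2 fold change on BRG1 silencing in Hermes 3A (x axis) and in 501Mel (y axis) for 32 HOX genes tested in both lines, with error bars of 1 SE, coloured by cluster, and the line of equal change in grey. Filled, named points are genes whose difference between the lines passed both thresholds. HOXB genes other than HOXB7 and HOXB13 rise to 2.29 on the 501Mel axis, HOXD1 sits at -1.24 and 1.16, and HOXA13 at 0.19 and -2.32.

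MITF silencing in 501Mel called 4 of the 32 HOX genes tested, 3 up-regulated and 1 down-regulated, where 5.59% of all 17701 genes were up-regulated and 3.4% down-regulated. The design has 2 libraries a group, and the shSCR2 libraries differed in depth, with 31651379 and 78857900 counts. Leaving out shMITF replicate 1 gave 7 calls and leaving out shMITF replicate 2 gave 1, where the lone library was assumed to vary like the other group. HOXB1, HOXB7, HOXC11, HOXC12, HOXD9, HOXD10 and HOXD11 were not tested.

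HOXB8 was at 0.671 and 0.735 RPKM in shSCR2 and 1.78 and 1.79 in shMITF (log2 fold change 1.36 ± 0.314, adjusted p = 0.0166, edgeR). HOXB2 was at 0.174 and 0.491 RPKM in shSCR2 and 0.845 and 1.89 in shMITF (log2 fold change 2.01 ± 0.555, adjusted p = 0.0388, edgeR). HOXC8 held 5 and 21 counts in shSCR2 and 41 and 65 in shMITF (log2 fold change 2.22 ± 0.457, adjusted p = 0.0102, edgeR).

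These 3 genes were higher in both shMITF libraries than in either control. HOXC13, a gene of hair and nail, was at 3.15 and 2.42 RPKM in shSCR2 and 1.63 and 0.769 in shMITF (log2 fold change -1.22 ± 0.375, adjusted p = 0.0493, edgeR).

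All 8 HOXB genes tested lay higher in both shMITF libraries than in either shSCR2 library, as did 16 of the 32 HOX genes, beside 32.5% of all genes. The median log2 fold change was 1.02 over HOXB, 0.39 over the HOX genes and 0.01 over all genes. The summed HOXB level was 7.08 ± 0.214 RPKM in shSCR2 and 14.1 ± 3.82 in shMITF (SD, n = 2 each).

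The called genes were ones in which the scramble groups differed or came near to it. Between shSCR2 and shSCR1, which both express a scramble shRNA, 7 of 32 HOX genes were higher and 4 lower in shSCR2, where 12.3% and 20.7% of all 19056 genes were. HOXB2 (-1.38 ± 0.327) and HOXB8 (-1.18 ± 0.188) were lower in shSCR2, HOXC8 stood at -1.04 (adjusted p = 0.0525, edgeR), and HOXC13 was higher (1.45 ± 0.191). Against both scramble groups pooled, 0 of 33 HOX genes were called in shMITF, and at an unadjusted p below 0.05, 7 were higher and 0 lower (edgeR). The share of all genes at this unadjusted level was not counted, so no lean is read from it. The HOXB2 level of shMITF (0.845 and 1.89 RPKM) overlapped that of shSCR1 (0.857 to 1.05), as did that of HOXB8 (1.78 and 1.79 against 1.49 to 1.8). The other genes higher in shSCR2 were HOXC10 (2.34), HOXA11 (1.81), HOXD12 (1.60), HOXA5 (1.33), HOXC9 (1.17) and HOXA10 (1.05). The others lower were HOXD9 (-2.6) and HOXC5 (-1.65), which passed the expression filter through shSCR1, so their direction was fixed by the filter. MITF itself had a log2 fold change of 0.97 and SMARCA4 of 0.83 in shSCR2 against shSCR1.

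The shBRG1 and shMITF effects in 501Mel, each against its own scramble group, differed in 7 of the 34 HOX genes tested, where 11.8% of all 22255 genes differed on the higher side and 15.5% on the lower. HOXD12 (1.44), HOXB6 (1.30) and HOXC13 (1.52) had the higher effect in shBRG1. HOXA13 (-2.09), HOXC5 (-2.74), HOXC8 (-2.57) and HOXD9 (-3.3) had the lower one. HOXD9 held 3 and 2 counts in shSCR2 and 4 and 12 in shMITF, and was not tested in the shMITF comparison. HOXC5 held 5 and 11 counts in shSCR2 and 12 and 16 in shMITF. HOXC8 held 5 and 21 counts in shSCR2 and 41 and 65 in shMITF. HOXA13 had a log2 fold change of -0.20 ± 0.229 in shMITF. The scramble groups themselves differed for HOXD12, HOXC13, HOXC5 and HOXD9, and came near to it for HOXC8. They were close for HOXB6, at 0.334 to 0.545 RPKM in shSCR1 and 0.420 and 0.457 in shSCR2, and HOXA13 was at 1.55 to 1.68 and at 1.75 and 2.08.

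MITF silencing in Hermes 3A called 4 of the 37 HOX genes tested, all up-regulated, where 3.35% of all 16508 genes were up-regulated and 4.04% down-regulated. Of the HOX genes, 0 were down-regulated by edgeR and 1 by DESeq2, and at an unadjusted p below 0.05, 15 were higher and 3 lower (edgeR). No share of all genes was counted at that unadjusted level, so these counts show no lean of the HOX genes. The median log2 fold change was 0.39 over the HOX genes and 0.05 over all genes. The summed HOXB level was 74.2 ± 2.81 RPKM in shSCR and 67.6 ± 21.4 RPKM in shMITF (SD, n = 3 each). HOXB13 carried both the lower mean and the spread. Without it the sum was 28.8, 27.3 and 26.5 RPKM in shSCR and 34.2, 38.1 and 34.4 in shMITF, higher in every shMITF library. The count of calls moved with single libraries. It was 7 without shMITF replicate 2, 2 without shMITF replicate 3, shSCR replicate 1 or shSCR replicate 2, and 1 without shSCR replicate 3.

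HOXC12, HOXC11 and HOXC8 are genes of 1 cluster. HOXC12 held 23, 14 and 13 counts in shSCR and 60, 69 and 55 in shMITF (log2 fold change 2.28 ± 0.345, adjusted p = 0.00451, edgeR). HOXC11 was at 0.979, 0.894 and 0.983 RPKM in shSCR and 1.61, 1.74 and 2.31 in shMITF (log2 fold change 1.00 ± 0.22, adjusted p = 0.0181, edgeR). HOXC8 was at 1.41, 1.17 and 1.33 RPKM in shSCR and 3.71, 1.74 and 2.62 in shMITF (log2 fold change 1.07 ± 0.299, adjusted p = 0.0423, edgeR).

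In each of the 3 genes all shMITF libraries lay above all shSCR libraries. HOXC11 sat at the fold-change threshold and fell just below it, at 0.99 to 1.00, under 5 other settings of the fit. The fourth gene, HOXD9, was at 3.94, 4.28 and 3.67 RPKM in shSCR and 9.14, 8.94 and 6.55 in shMITF (log2 fold change 1.08 ± 0.19, adjusted p = 0.008, edgeR). HOXC9 (0.83 ± 0.139), HOXA9 (0.79 ± 0.161), HOXC6 (0.68 ± 0.168) and HOXD11 (0.99 ± 0.264) passed the adjusted p alone. The median log2 fold change was -0.15 in paralog groups 1-3, 0.43 in groups 4-8 and 0.78 in groups 9-13.

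HOXB13 and HOXD1 spread widely among the shMITF libraries. HOXB13 was at 13.2, 51.8 and 30.9 RPKM in shMITF, so that 1 library lay above the controls and 2 lay below (log2 fold change -0.52 ± 0.395, adjusted p = 0.406, edgeR). HOXD1 was at 0.974, 2.10 and 0.512 RPKM, all below the controls (log2 fold change -1.10 ± 0.443, adjusted p = 0.126, edgeR). Along HOXD the log2 fold changes from HOXD1 to HOXD13 were -1.10, -0.73, -0.50, 0.47, 1.08, 0.21, 0.99, 1.00 and 0.77. The values of both Hermes 3A knockdowns stand side by side here, and since they share the shSCR libraries no likeness between them is drawn.

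The shMITF effects in the lines differed by the interaction term in 1 of 37 HOX genes, where 2% of all 19284 genes differed on the higher side and 0.643% on the lower. The gene was HOXD3, with a log2 fold change of 0.77 in 501Mel and -0.73 in Hermes 3A and a difference of 1.49 ± 0.361 (adjusted p = 0.0464, edgeR). Without any 1 of 501Mel shSCR2 replicates 1 and 2, 501Mel shMITF replicate 2, Hermes 3A shSCR replicates 1, 2 and 3 or Hermes 3A shMITF replicate 3, the number of calls was 0, and without Hermes 3A shMITF replicate 2 it was 2. On the lower side 0 HOX genes passed by edgeR or DESeq2, and at an unadjusted p below 0.05, 5 were higher and 1 lower (edgeR). How many of all genes passed the unadjusted level was not counted.

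Genes that act with or on the clusters were counted from fixed lists. In 501Mel shBRG1 these counts stand beside 21.7% of all genes up-regulated and 17.4% down-regulated, and a share near these is no result about a list. The TALE homeodomain proteins (PBX, MEIS and PKNOX) bind DNA together with HOX proteins. In 501Mel shBRG1, 0 of 9 were up-regulated and 3 were down-regulated, namely MEIS2 (-2.31), MEIS3 (-1.35) and PKNOX1 (-1.0). A log2 fold change above 0 was found in 1 of 9, beside 51.9% of all genes. In 501Mel shMITF, MEIS2 fell (-1.22) among 8 tested. In Hermes 3A none of 9 was called in shBRG1, and MEIS3 (1.20) rose in shMITF. In Hermes 3A shBRG1, 4 passed the adjusted p alone on the higher side and 3 on the lower, beside 28.2% and 28.6% of all genes.

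Among Polycomb repressive complex 2 genes, RBBP7 (-1.21), a histone-binding subunit, was the single call of 11 in 501Mel shBRG1, and 0 of 11 were called in each of the other 3 comparisons. With the adjusted p alone, 1 was higher and 7 lower in 501Mel shBRG1, beside 41.2% and 39.1% of all genes. In Hermes 3A shBRG1 0 were higher and 5 lower, beside 28.2% and 28.6% of all genes. In 501Mel shMITF 1 was higher and 5 lower, and in Hermes 3A shMITF 0 and 1. For the shMITF comparisons the share of all genes at the adjusted p alone was not counted. Among 11 genes of Polycomb repressive complex 1, BMI1 (1.60) and CBX6 (1.16) rose in 501Mel shBRG1, while CBX2 (-1.10), CBX8 (-1.26) and PHC1 (-1.25) were among those that fell. CBX6 also rose in Hermes 3A shBRG1 (1.22) and in Hermes 3A shMITF (1.03), and CBX7 (1.11) rose in 501Mel shMITF.

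Of 10 trithorax and related genes, the H3K79 methyltransferase DOT1L (1.33) and the H3K27 demethylase KDM6B (1.68) rose in 501Mel shBRG1, and ASH2L (-1.53) and PSIP1 (-1.31) fell. DOT1L rose in Hermes 3A shMITF (1.19). Of the retinoic acid genes, 1 of 13 rose and 2 fell in 501Mel shBRG1. These were the retinoic acid hydroxylase CYP26A1 (1.98, 7 counts over shSCR1 and 37 over shBRG1), the receptor RARB (-2.93) and the synthetic enzyme ALDH1A3 (-3.75). RARB also fell in Hermes 3A shBRG1 (-1.22), where the retinal reductase DHRS3 rose (2.19). ALDH1A2 fell in 501Mel shMITF (-1.90). In Hermes 3A shMITF, DHRS3 rose (3.35) and ALDH1A1 fell (-1.56). None of the ParaHox and CDX genes had the counts to be tested.

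Long noncoding RNAs of the clusters were called more than once. In 501Mel shBRG1, 5 of 11 rose and 1 fell. HOXB-AS1 (1.30) and HOXB-AS3 (1.56) lie within the up-regulated HOXB stretch, HOTAIRM1 (1.01) in HOXA, HOXC-AS1 (1.30) at HOXC9 and HAGLROS (1.01) in HOXD, while HOXA11-AS fell (-1.04). HAGLR, which lies beside HOXD1 on the opposite strand, had a log2 fold change of 0.96 in 501Mel shBRG1 and fell in Hermes 3A shBRG1 (-1.03) and in Hermes 3A shMITF (-1.58). HOXC-AS1 rose in 501Mel shMITF (1.41) and HOXC-AS2 in Hermes 3A shBRG1 (1.12). Without strand these reads cannot be told apart from those of the overlapping HOX genes.

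Among genes flanking the clusters, the called ones did not share a direction. In 501Mel shBRG1, SKAP1 (1.82) and SNX11 (1.13), on one side of HOXB, and EVX2 (1.31), beside HOXD13, rose among 20 tested, and SKAP2 (-1.63), JAZF1 (-3.70) and TTLL6 (-1.38) fell. The median log2 fold change of these 20 genes was -0.34, beside 1.68 for the HOXB genes. With the adjusted p alone, 6 of the 20 were higher and 13 lower, beside 41.2% and 39.1% of all genes. JAZF1 also fell in Hermes 3A shBRG1 (-1.28), and CALCOCO1 rose in 501Mel shMITF (1.16).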

How the data were processed

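Total RNA from 501Mel and Hermes 3A cells was depleted of ribosomal RNA, and the libraries were treated with duplex-specific nuclease, which lowers abundant cDNAs and can compress differences among highly expressed genes. Per the submitters' processing notes, reads were handled with CASAVA 1.8, TopHat 1.4.1 and Bowtie 0.12.7 on hg19. The counter, its annotation and its use of strand were not given in the sources used here. The authors deposited raw counts per Ensembl gene for each of the 19 samples, with 29158502 to 78857900 counts per library. The lists of genes differed, with 34033 genes for Hermes 3A shMITF, 41467 for 501Mel shSCR2 and shMITF and 42224 for the other groups. Each comparison used genes listed for all its libraries. In Hermes 3A shMITF against shSCR and in shSCR2 against shSCR1, the group cannot be told apart from the list.

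Groups were taken from the labels. Symbols, gene types, positions and exon lengths were matched by Ensembl ID to GENCODE 29 on GRCh38. RPKM values were computed here from counts, effective library sizes and these lengths. Each comparison was fitted on its own groups in R 4.3.3 with edgeR 4.0.16 (expression filter, TMM normalization, robust quasi-likelihood test, Benjamini-Hochberg adjustment over all genes tested). A call needs an adjusted p below 0.05 and an absolute log2 fold change above 1. Differences between effects were tested as interaction terms in a fit of the groups involved. The scripts were tested on simulated data. Figures were drawn with matplotlib 3.10.9 in Python 3.11.15.

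Counts and medians cover all 39 members, and the called members named are given with values per library where described in full. Listed genes are given as counts of calls, with values for called ones. Some items that enter these counts are not reported here by name or drawn. The members and lists were chosen with earlier results of these data known. Of the listed genes CDX1, PCGF2, KMT2B and PECAM1 were not analysed here. Alternatives were DESeq2 1.42.0, library sizes in place of TMM, other filters, no fold-change threshold, other pools of samples, a block on the replicate number, and leaving out each library.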

Additional observations from a re-analysis of the deposited data

Results flagged for a closer look

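The response to BRG1 silencing differed between 501Mel and Hermes 3A in 15 HOX genes, by an interaction term fitted with edgeR, adjusted over all genes tested. Values are log2 differences, 501Mel minus Hermes 3A. They were positive for the HOXB stretch, with HOXB2 at 1.57 (adjusted p = 1.68e-13), HOXB3 at 1.17 (4.41e-09), HOXB4 at 1.05 (4.16e-09), HOXB5 at 1.81 (6.63e-06), HOXB6 at 2.20 (2.14e-14), HOXB8 at 1.35 (1.19e-11) and HOXB9 at 1.09 (9.59e-10).

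They were also positive for HOXD1 at 2.36 (2.83e-13), HOXD4 at 1.13 (1.8e-10) and HOXA5 at 1.31 (1e-06). HOXD1 and HOXA5 had effects of opposite sign in the lines, with log2 fold changes of 0.89 and -0.44 for HOXA5. The 501Mel effects of HOXA5 and HOXD4 depend on shSCR1 as the control. HOXA5 was at 3.10 to 3.77 RPKM in 501Mel shBRG1, above shSCR1 (1.68 to 1.91) and below shSCR2 (4.36 and 4.65). HOXD4 was at 10.1 to 10.7 RPKM in 501Mel shBRG1, above shSCR1 (4.40 to 5.16) and between the shSCR2 libraries (6.75 and 12.4). The difference was negative for HOXA13 at -2.53 (1.28e-11).

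The remaining negative differences rest on few reads in 501Mel. HOXC5 was at -1.84 (0.000323), HOXC10 at -1.74 (2.83e-05), HOXD9 at -1.97 (2.09e-05) and HOXD10 at -2.37 (0.00428). The 501Mel effects of HOXC5 and HOXD9 also depend on shSCR1 as the control. HOXC5 was at 0.053 to 0.093 RPKM in shBRG1 and 0.087 and 0.084 in shSCR2. HOXD9 was at 0.041 to 0.081 RPKM in shBRG1 and 0.050 and 0.015 in shSCR2. HOXD10 held 16 counts over the shSCR1 libraries and 4 over those of shBRG1, and leaving out 1 library lost its call. The response to MITF silencing differed for HOXD3, at 1.49 (0.0464).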

How the results depend on the processing

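Of the 622 combinations of a called gene and an alternative setting, 577 kept direction and call, 45 kept direction and lost the call, and 0 changed direction. A called gene dropped by a filter has no combination, and the fits without 1 library count once per gene, by the weakest. With at least 10 counts in every sample, 58 calls were kept and 3 lost among genes still tested, while with DESeq2 these were 90 and 1. The share kept is therefore that of genes still tested. The cause of the changes was not tested, beyond a lower or higher threshold or number of genes. With no fold-change threshold, 25 HOX genes were called in 501Mel shBRG1, 16 in Hermes 3A shBRG1, 8 in Hermes 3A shMITF, 18 between the scramble groups and 11 between the 501Mel effects. With at least 10 counts in every sample, 2 were called in 501Mel shMITF, 17 between the lines and 7 between the scramble groups. In 501Mel shMITF, HOXC8 was then not tested and HOXC13 was no longer called (adjusted p = 0.0535, edgeR). With both scramble groups pooled, 0 were called in 501Mel shMITF and 10 in 501Mel shBRG1. For the difference of the shMITF effects, DESeq2 called 2, library sizes in place of TMM 0 and the replicate block 2.

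Leaving out 1 library gave 14 to 15 calls in 501Mel shBRG1, 1 to 7 in 501Mel shMITF, 4 to 5 in Hermes 3A shBRG1, 1 to 7 in Hermes 3A shMITF, 31 between the lines, 11 to 12 between the scramble groups, 14 to 16 for the difference of the shBRG1 effects, 0 to 2 for that of the shMITF effects and 7 to 9 between the 501Mel effects.

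Same-numbered libraries of the groups compared shared only a number. The correlation of their deviations ran from -0.105 to 0.182, so no pairing was used. With the replicate block, 14 HOX genes were called in 501Mel shBRG1, 6 in 501Mel shMITF and 28 between the lines.

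Library sizes in place of TMM moved the median log2 fold change of all genes from 0.05 to 0.40 in 501Mel shBRG1, where the share of higher calls went from 55.5% to 72.1% and the HOX calls were 13 up and 4 down. In Hermes 3A this share went from 62.5% to 72.5% in shBRG1 and from 45.3% to 56.0% in shMITF. For the difference of the shBRG1 effects it went from 44.7% to 61.8%, and between the 501Mel effects from 43.2% to 57.4%. HOX genes with under about 20 counts a library, such as HOXB7, HOXC5 and HOXD9 in 501Mel, are limited by depth.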
